A study of Mus musculus with 18 samples.

Results

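Contractile smooth muscle genes were followed through a series in which mouse fibroblasts were converted into intestinal progenitors. The 9 genes were Acta2, Actg2, Myh11, Myl9, Tagln, Cnn1, Tpm2, Lmod1 and Des, and their probes were found by gene name in the array files. They were read by 15 of 41109 gene probes (9 of 19896 named genes), 5 for Acta2, 2 each for Tagln and Tpm2, and 1 for each other gene. The probe of Myl9 carried that name in the fibroblast and hepatocyte-like arrays, and a transcript identifier in the organoid arrays. All 15 probes gave a value on all 18 arrays.

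Smooth muscle contracts when myosin II filaments pull on actin filaments, after a kinase has phosphorylated the myosin regulatory light chain. The genes are widely used as markers of smooth muscle and of activated fibroblasts, the myofibroblasts that shape wounds and the stroma of the gut. Many of them are switched on by serum response factor and its partners of the myocardin family, and in the intestine the smooth muscle layers surround the epithelium from which organoids are grown.

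The series held 6 groups of 3 arrays, all from C57BL/6 mice. The group iISC holds budding organoids of induced intestinal stem cells, and the group crypt holds budding organoids of adult crypts. The groups iFIPC (induced fetal intestinal progenitors) and FI (progenitors of fetal intestine) were cultures in which spheres and budding forms were mixed. Hepatocyte-like cells made from mouse embryonic fibroblasts are called iHep, and embryonic fibroblasts MEF. The labels do not say that these MEFs were the cells converted, the 3 iHep titles carry differing codes that are not explained, and the titles of both groups mark their arrays as a re-analysis. No age, sex, culture time or conversion factors are given for any group. Nothing in the labels says that the samples of a group came from separate animals or cultures, so p-values measure only the spread between these samples.

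Levels are log2 signals relative to the 75th percentile of gene probes on the same array, so 0 is that percentile, and levels of different probes are not set against each other. Changes are log2 differences with their standard errors from limma, fitted over all genes, and a gene is called where the Benjamini-Hochberg adjusted p is under 0.05 and the log2 change at least 1 in size. The percentile itself ranged from 714.1 to 1484 intensity units over the 18 arrays, and the share of gene probes well above background from 56.1 to 68.7%. Precision is limited by the number of arrays, since with 3 samples a side the smallest exact permutation p is 0.1. In robust spread MEF arrays 2 and 3 differed by no more than the noise of single spots, and in standard deviation by slightly more. They were averaged, which leaves 2 MEF samples. All 16 fibroblast markers were above background on each MEF and iHep array, and 11 or 12 of 12 epithelial markers on each organoid array. All 6 hepatocyte markers were above background in iHep, although Alb, the gene of serum albumin, stood at 6.46, 7.92 and -0.20 in its 3 arrays. MEF and iHep arrays had slides, a scanner and a software version other than those of the organoid arrays. In every comparison between these sets, array set and cell type cannot be told apart. In such bulk samples fewer cells of a type and less RNA per cell cannot be told apart either.

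All 9 genes were higher in MEF than in any other group. Compared with MEF, all 9 were lower in iISC, crypt, iFIPC and FI organoids and in iHep. In all 5 comparisons no sample of the other group reached a MEF sample, but the share of all genes separated in this way was not counted. Genes called lower made up 25.4% of all genes tested in iISC, 26.1% in crypt, 23.2% in iFIPC, 23.7% in FI and 15.8% in iHep. A gene was tested where at least 1 of the groups compared had it above background on all arrays. All 9 were tested against MEF, but 4 in iISC, 4 in crypt, 4 in iFIPC, 2 in FI and 2 in iHep passed this filter through MEF alone and so had to be higher there. The size of the difference depended on the gene and, for Acta2 and Tagln, on the probe. It was small for Acta2 by its brightest probe and for Actg2 by its only probe, with log2 changes from -4.53 to -3.33 in the 4 organoid groups. The other Acta2 probes tested gave larger changes, described below. For Cnn1 the difference was large, at least 2704-fold lower in iISC and 3850-fold lower in crypt. In organoids Cnn1, Des, Myh11 and Lmod1 lay at or near background, while Tpm2 in iFIPC and Myl9 in FI stood well above the other organoids.

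**Figure D1:**
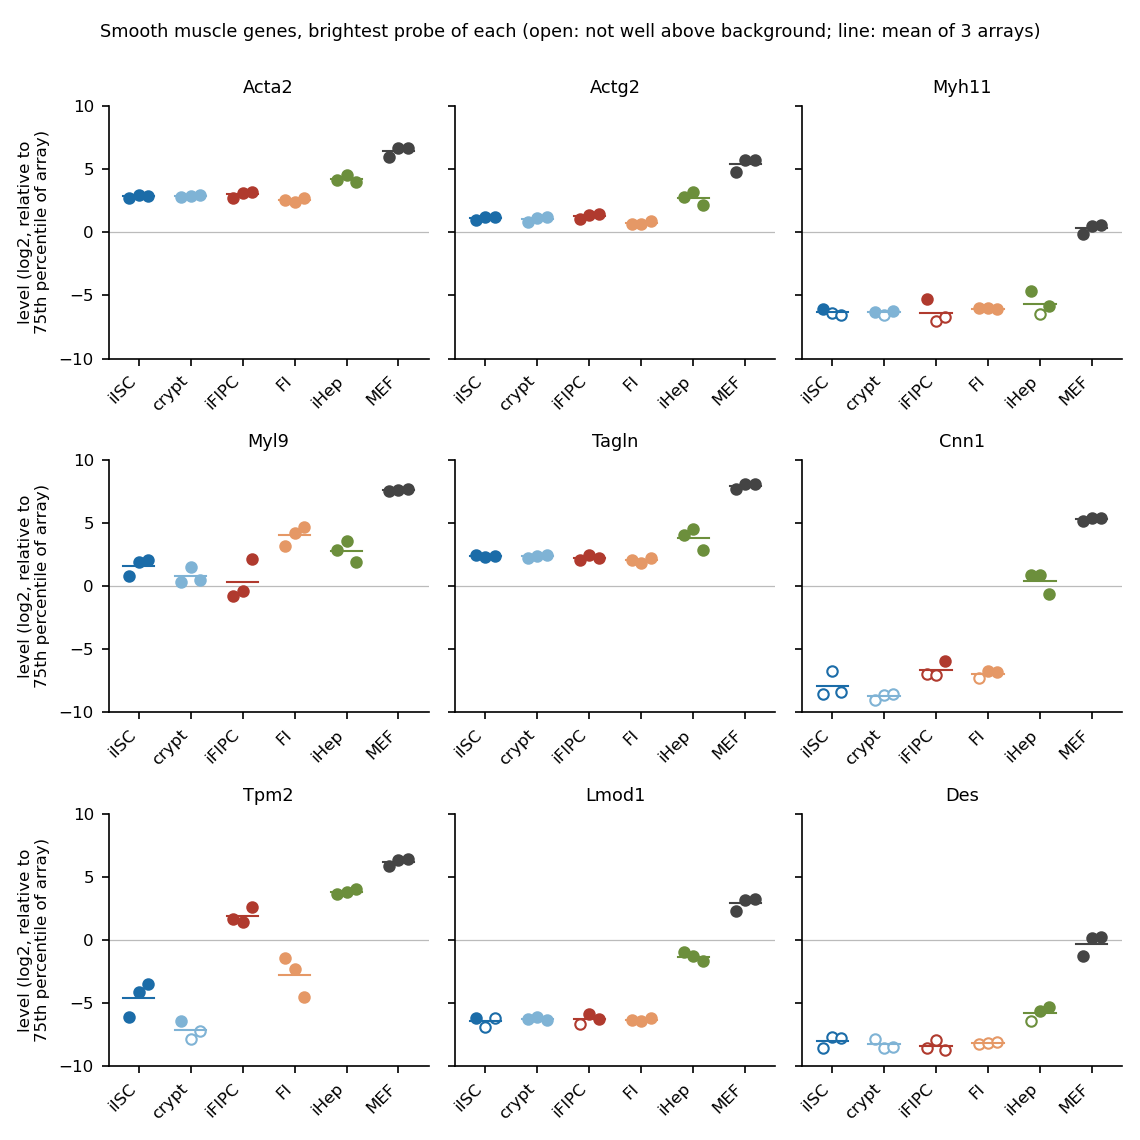
Level of each gene (log2 relative to the 75th percentile of its array) in 6 groups, 1 point per array, brightest probe of each gene. Filled points were well above background, open points were not, and the lines are means of 3 arrays. MEF points stand above all others in each panel, iFIPC lies above the other organoids in Tpm2 (1.45 to 2.58), and FI in Myl9 (3.18 to 4.68).

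Cnn1 encodes calponin, which binds actin and slows the myosin motor in differentiated smooth muscle. Its level was -8.58, -6.74 and -8.35 in iISC, -9.04, -8.61 and -8.52 in crypt, -6.95, -7.02 and -5.96 in iFIPC and -7.28, -6.72 and -6.77 in FI, against 5.18, 5.36 and 5.41 in MEF. Only iFIPC 3, FI 2 and FI 3 were well above background among the 12 organoid arrays. Cnn1 was at least 2704-fold lower in iISC (adjusted p = 5.37e-10) and at least 3850-fold lower in crypt (2.88e-10). In such a bound each dim array counts at least with the faintest signal that was still well above background on it. A gene with such a bound entered the test through the brighter group alone and could come out in 1 direction only. In iFIPC and FI, where 1 and 2 arrays were above background, the fitted log2 changes were -11.93 ± 0.56, adjusted p = 1.73e-09, and -12.21 ± 0.56, adjusted p = 1.20e-09.

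Des encodes desmin, the intermediate filament protein of muscle. Its level was -6.42, -5.64 and -5.28 in iHep and -1.25, 0.19 and 0.20 in MEF, and no organoid array was above background. MEF 1 was the lowest MEF array and still lay above every array of the other groups. Des was at least 48.2-fold lower in iISC, 68.6-fold in crypt, 65.3-fold in iFIPC and 85.9-fold in FI than in MEF (adjusted p from 7.00e-09 to 1.07e-08).

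Myh11 encodes the smooth muscle myosin heavy chain, the motor itself and the strictest marker of the lineage. It stood at -6.07, -6.41 and -6.52 in iISC, -6.29, -6.52 and -6.26 in crypt, -5.31, -7.07 and -6.75 in iFIPC and -6.02, -6.00 and -6.11 in FI, against -0.13, 0.46 and 0.55 in MEF. On 7 of 12 organoid arrays it was above background, on all 3 only in FI, and the organoid groups overlapped except crypt and FI, where FI lay higher. The log2 changes against MEF were -6.52 ± 0.51, -6.55 ± 0.51, -6.56 ± 0.51 and -6.23 ± 0.51 (SE; adjusted p at most 2.42e-07). Lmod1 encodes leiomodin, which starts new actin filaments, and ran from -6.91 to -5.87 in the 12 organoid arrays, 9 of them above background, against 2.29, 3.18 and 3.22 in MEF. Its change against MEF was nearly the same in all 4 organoid groups, from -9.17 ± 0.31 in iISC to -8.98 ± 0.31 in crypt, with adjusted p at most 9.63e-11.

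Tpm2 encodes beta-tropomyosin, a coiled coil that lies along the actin filament and gates the access of myosin. Its brighter probe read -6.13, -4.09 and -3.47 in iISC, -6.45, -7.84 and -7.18 in crypt, 1.65, 1.45 and 2.58 in iFIPC, -1.40, -2.26 and -4.55 in FI, 3.61, 3.77 and 4.01 in iHep and 5.85, 6.34 and 6.37 in MEF. MEF, iHep, iFIPC, FI, iISC and crypt followed each other in falling order of mean, and only FI and iISC overlapped. The probe, shown because it separates the organoid groups most widely, spans 2 exons at chr4:43532150-43532300 (mm9, minus strand):
Tpm2 A_52_P418477: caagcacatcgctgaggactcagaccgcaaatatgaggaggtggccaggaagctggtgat

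Tpm2 was lower than in MEF in iISC (log2 change -10.67 ± 0.85, adjusted p = 1.88e-07) and in FI (-8.84 ± 0.85, adjusted p = 1.21e-06). In crypt, with 1 of 3 arrays above background, the fitted change was -13.26 ± 0.85, adjusted p = 2.05e-08. The change was smaller in iFIPC, at -4.21 ± 0.85, adjusted p = 8.18e-04. The second Tpm2 probe gave -10.89 ± 0.72 in iISC, -4.35 ± 0.72 in iFIPC and -9.06 ± 0.72 in FI.

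Myl9 encodes the regulatory light chain of smooth muscle and non-muscle myosin II. Its level was 0.79, 1.90 and 2.06 in iISC, 0.33, 1.48 and 0.51 in crypt, -0.76, -0.37 and 2.14 in iFIPC, 3.18, 4.22 and 4.68 in FI, 2.87, 3.59 and 1.89 in iHep and 7.49, 7.64 and 7.68 in MEF, above background on all 18 arrays. MEF stood alone at the top, FI and iHep overlapped, and iHep, iISC, crypt and iFIPC each overlapped the next. iFIPC was spread widely, with iFIPC 3 above all iISC arrays and the others below them. The changes against MEF were -5.99 ± 0.78 in iISC, -6.80 ± 0.78 in crypt and -7.24 ± 0.78 in iFIPC (adjusted p at most 1.78e-05), and -3.55 ± 0.78, adjusted p = 0.00137 in FI.

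Acta2 and Tagln were the genes whose probes disagreed on the size of the change. Acta2 encodes smooth muscle alpha-actin and Actg2 the gamma-actin of enteric smooth muscle, and both proteins are nearly identical to the actins of all cells. Tagln encodes transgelin (SM22), a small actin-binding protein. The brightest Acta2 probe lies inside the transcript, starting at base 298. It is shown because its organoid level sets the size of the change of the gene, with a Tagln probe that starts at base 478.
Acta2 A_51_P450957: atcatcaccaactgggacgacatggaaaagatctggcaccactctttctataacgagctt
Tagln A_52_P517683: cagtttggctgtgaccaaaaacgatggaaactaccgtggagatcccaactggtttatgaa

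The Acta2 probe spans 2 exons, at chr19:34322995-34326249, and the Tagln probe lies at chr9:45738916-45738975 (mm9, minus strand for both). Each had an open reading frame along its whole length. The brightest Acta2 probe stayed at 2.37 to 3.15 in all 12 organoid arrays, against 5.95, 6.69 and 6.66 in MEF. A probe nearer the 3′ end of the same transcript starts at base 1241 and is called the 3′ probe here. It read -5.37, -5.52 and -5.71 in iISC, -5.67, -5.32 and -5.39 in crypt, -4.22, -4.43 and -2.64 in iFIPC, -5.79, -5.80 and -5.66 in FI, 5.13, 6.29 and 4.46 in iHep and 8.12, 8.57 and 8.57 in MEF. A further probe, starting at base 1604, was above background on no organoid array, and the same held for the probe of another Acta2 transcript record that was above background in MEF 2 and MEF 3 alone.

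Acta2 was thus lower than in MEF by all 4 probes that were tested, but by very different amounts. Over the 15 probes of the 9 genes, 14 were tested and called lower in each organoid group, some of them through MEF alone, where 25.8% of all probes were called lower in iISC, 24.9% in crypt, 23.1% in iFIPC and 23.1% in FI. In iISC the brightest probe gave -3.46 ± 0.22 and the 3′ probe -13.88 ± 0.51. In crypt the values were -3.47 ± 0.22 and -13.80 ± 0.51, in iFIPC -3.33 ± 0.22 and -12.11 ± 0.51, and in FI -3.79 ± 0.22 and -14.09 ± 0.51 (SE; adjusted p at most 4.04e-08 for these 8 values). By the probe at base 1604, Acta2 was at least 2030-fold lower in iISC and at least 3617-fold lower in FI. A probe of another transcript record, starting at base 222, gave -5.39 ± 0.44 in iISC, -5.95 ± 0.44 in iFIPC and -5.91 ± 0.44 in FI, each with 1 of 3 arrays above background. In size these changes lay between those of the brightest and the 3′ probe.

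The 2 Tagln probes differed in the same way. The brightest read 1.82 to 2.43 over the organoid arrays, against 7.67, 8.04 and 8.05 in MEF, a change of -5.49 ± 0.34, adjusted p = 1.74e-08 in iISC. The probe at base 478 was above background on none of the 12 organoid arrays, against 4.97, 5.77 and 5.85 in MEF. By this probe Tagln was at least 2911-fold lower in iISC, 4145-fold in crypt, 3945-fold in iFIPC and 5186-fold in FI. The RefSeq gene table has Tagln overlapping its neighbour Pcsk7, whose brighter probe lay between 0.37 and 1.95 on all 18 arrays, and what the brightest Tagln probe reads in organoids was not tested. Actg2 stood at 0.64 to 1.44 in organoids, against 4.79, 5.71 and 5.69 in MEF, with changes from -4.53 ± 0.29 in FI to -3.97 ± 0.29 in iFIPC. The actins Actb and Actg1 of all cells were above background on all 18 arrays. Actb read 3.93, 4.18 and 4.01 in iISC and 4.02, 5.10 and 5.20 in MEF, and Actg1 6.67, 6.76 and 6.77 in iISC and 7.22, 7.52 and 7.51 in MEF. Whether they add to the signal of the Acta2 and Actg2 probes was not tested, and levels of both genes in organoids are uncertain for that reason.

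**Figure D2:**
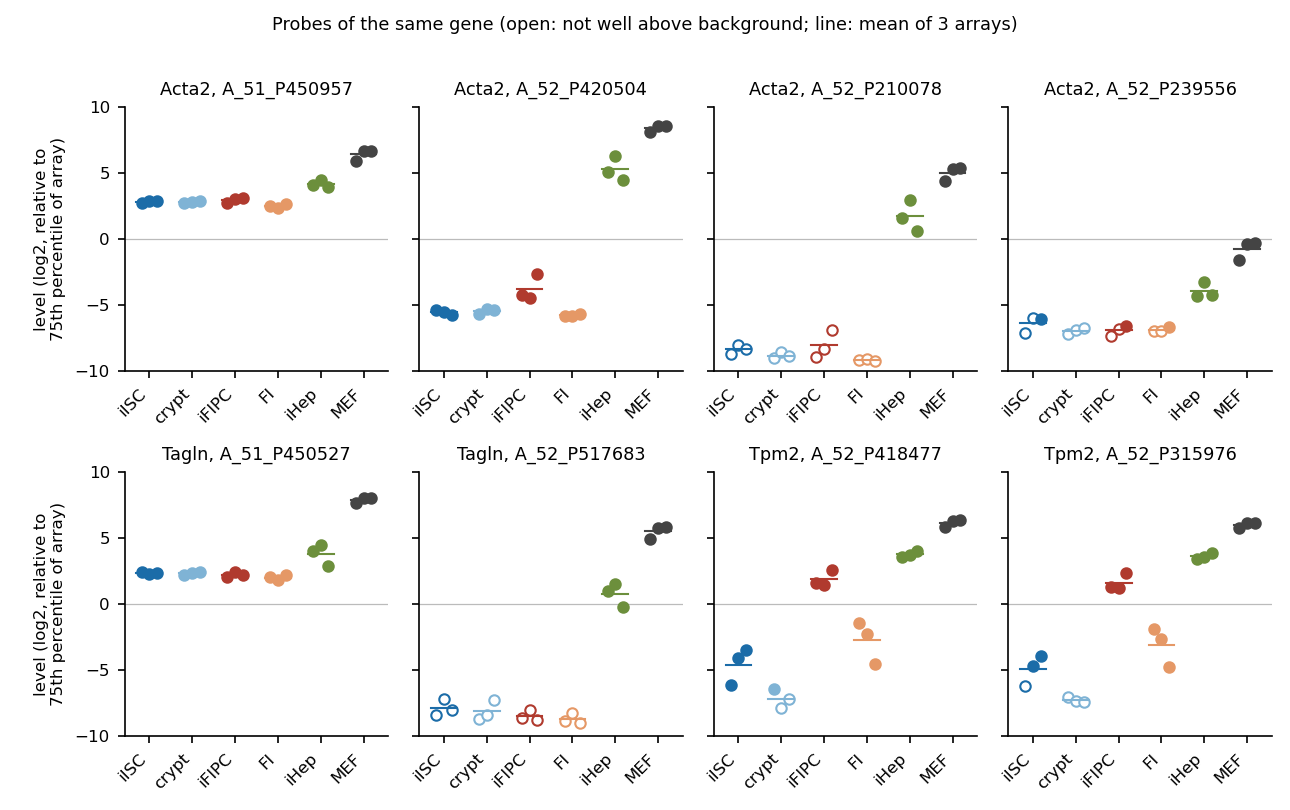
Level of single probes (log2 relative to the 75th percentile of the array) for Acta2 (4 of 5 probes), Tagln and Tpm2 in 6 groups, 1 point per array. Filled points were well above background and lines are means of 3 arrays. In organoids the first Acta2 probe (2.37 to 3.15) and the first Tagln probe (1.82 to 2.43) stayed well above background while the other probes drawn for both genes showed a larger drop from MEF, and the 2 Tpm2 probes gave the same picture.

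Over the 9 genes the median change against MEF was -6.52 in iISC, -6.80 in crypt, -6.56 in iFIPC, -6.23 in FI and -4.06 in iHep, against medians of -0.01, 0.02, -0.02, 0.03 and -0.11 over all genes tested. These medians describe all 9 genes, including those that passed the filter through MEF alone, and in iISC, iFIPC and FI the median gene is Myh11. The 5 comparisons share the MEF samples. The summed signal of the fibroblast markers was lower than in MEF too. It was 0.834 to 1.01 times the 75th percentile in iISC, 1.24 to 1.83 in crypt, 4.17 to 12.8 in iFIPC, 0.817 to 2.67 in FI and 122 to 269 in iHep, against 1444 to 1463 in MEF. Its part in the result was not tested.

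**Figure D3:**
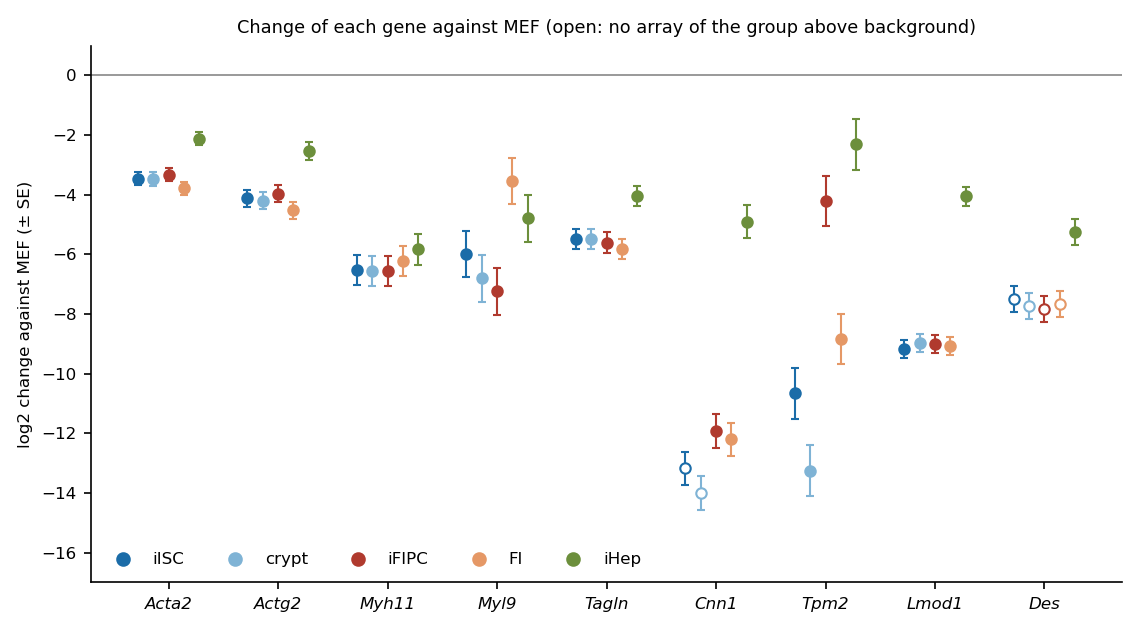
Log2 change against MEF with its standard error for the 9 genes (brightest probe) in iISC, crypt, iFIPC, FI and iHep, 3 samples each against 2 MEF samples. Open points have no array above background, so that their size is a bound only in the text. All values are below 0, and iHep lies nearest to 0 for all genes except Myl9, for which FI does.

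In iHep all 9 genes were lower than in MEF, with 7 of them above background on all 3 arrays. Cnn1 kept a level of 0.90, 0.89 and -0.66 in iHep, against 5.18, 5.36 and 5.41 in MEF (-4.91 ± 0.56, adjusted p = 1.62e-05). Lmod1 read -0.99, -1.28 and -1.66 in iHep (-4.06 ± 0.31, adjusted p = 4.47e-07), and Myl9 fell by a similar amount (-4.79 ± 0.78, adjusted p = 3.17e-04). Myh11 and Des, each above background on 2 of 3 iHep arrays, gave fitted changes of -5.84 ± 0.51, adjusted p = 1.33e-06, and -5.25 ± 0.44, adjusted p = 9.90e-07. The smallest changes were those of Acta2 by its brightest probe (-2.13 ± 0.22, adjusted p = 6.95e-06), Tpm2 (-2.31 ± 0.85, adjusted p = 0.0435) and Actg2 (-2.53 ± 0.29, adjusted p = 1.77e-05). Tagln lay between by its brightest probe, with 4.06, 4.50 and 2.88 in iHep (-4.04 ± 0.34, adjusted p = 1.02e-06). Other Acta2 probes fell further: the 3′ probe averaged 5.29 in iHep and 8.35 in MEF. The probe at base 1604 averaged 1.74 and 4.87, and the probe at base 222 averaged -3.92 and -0.96. The place of Acta2 in this order thus rests on 1 probe. iHep 3 was the lowest of the 3 for Acta2, Actg2, Tagln, Cnn1, Lmod1 and Myl9. For Tpm2 and Des it was the highest, and for Myh11 it lay in the middle. Its summed fibroblast marker signal was the lowest, 122.4 times the 75th percentile against 269.4 and 267.6 in iHep 1 and 2. A link between this sum and the levels was not tested.

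Within the slide that holds all iHep arrays and MEF 1, all 9 changes kept their direction, and those of Acta2 (-2.83 ± 0.80, adjusted p = 0.111), Tagln (-3.86 ± 0.73, 0.0519) and Actg2 (-2.08 ± 0.48, 0.0767) missed the threshold, in a fit with a single MEF array assumed to vary like iHep. The call of Tpm2 was the least firm, since its adjusted p was 0.102 without MEF 1 and 0.0641 to 0.0904 without each iHep array.

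Compared with iHep, most of the contractile genes were lower still in the induced organoids. Of 7 genes tested in each comparison, 6 were lower in iISC and 7 in iFIPC, where 19.3% and 16.5% of all genes were called lower, and 2 of the 7 passed the filter through iHep alone. Myh11 and Des were not tested because neither group had them above background on all arrays. Cnn1 was at least 90.1-fold lower in iISC (adjusted p = 2.49e-08) and changed by -7.02 ± 0.50, adjusted p = 1.69e-07 in iFIPC, with 1 of 3 arrays above background. Lmod1 changed by -5.11 ± 0.28 in iISC and -4.95 ± 0.28 in iFIPC. Acta2 changed by -1.33 ± 0.20 and -1.20 ± 0.20 by its brightest probe, and by -10.83 ± 0.45 and -9.06 ± 0.45 by its 3′ probe. Tagln changed by -1.45 ± 0.30 and -1.56 ± 0.30 by its brightest probe, and Actg2 by -1.60 ± 0.26 and -1.44 ± 0.26 (adjusted p at most 0.00104 for these 8 values). By the Tagln probe at base 478 the drop was larger, from a mean of 0.78 in iHep to -7.87 in iISC and -8.45 in iFIPC. No iISC or iFIPC array was above background by that probe, so the size of this drop is uncertain.

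Tpm2 set the 2 induced organoids apart. Against iHep its change was -8.36 ± 0.76, adjusted p = 9.61e-07 in iISC. In iFIPC the change was -1.90 ± 0.76, adjusted p = 0.0469, a call that was lost without iFIPC 1 (0.109), without iFIPC 2 (0.127) and without any 1 iHep array (0.0786 to 0.101). Myl9 did not pass the test in iISC (-1.20 ± 0.70, adjusted p = 0.148) and passed it in iFIPC (-2.45 ± 0.70, adjusted p = 0.00923), where iFIPC 3 at 2.14 lay above iHep 3 at 1.89. That call was lost when iFIPC and iHep alone were fitted (adjusted p = 0.0628). With median centring in place of the percentile, the Acta2 changes by the brightest probe shrank to -0.89 ± 0.19 in iISC and -0.91 ± 0.19 in iFIPC, below the minimum size.

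Among the organoids the question was whether those from converted cells differ from those grown from intestine. Between iISC and crypt organoids none of the 6 genes tested passed, where 2.96% of all genes did. These 2 groups share no slide, so a value within a slide cannot be had for this comparison. Acta2 (0.01 ± 0.14), Tagln (0.00 ± 0.14) and Actg2 (0.08 ± 0.15) overlapped between the groups, and so did Lmod1 (-0.19 ± 0.24) and Myl9 (0.81 ± 0.74). Tpm2 was the exception in level: every iISC array read higher than every crypt array, but the difference of 2.59 ± 0.87, with 1 of 3 crypt arrays above background, gave an adjusted p of 0.137. At an unadjusted p under 0.05 in limma Tpm2 was the 1 gene of the 6 that passed, and since it entered the test through iISC alone its direction was fixed by the filter.

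iFIPC and FI organoids differed in 2 of the 7 genes tested, Tpm2 and Myl9, in opposite directions, against 10.3% of all genes. Tpm2 was higher in iFIPC (4.63 ± 0.87, adjusted p = 0.00748), and its second probe gave 4.71 ± 0.73, adjusted p = 0.00403. Myl9 was lower in iFIPC (-3.69 ± 0.74, adjusted p = 0.00965). Neither gene overlapped between the groups. Acta2 by its 3′ probe was also higher in iFIPC (1.99 ± 0.38, adjusted p = 0.00983, in a fit that called 8.71% of all probes), while its brightest probe differed by 0.46 ± 0.14, adjusted p = 0.0473, less than the minimum size. Actg2 showed the same small difference (0.56 ± 0.15, adjusted p = 0.0297). Tagln (0.21 ± 0.14), Myh11 (-0.33 ± 0.37) and Lmod1 (0.06 ± 0.24) did not pass.

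No slide holds arrays of both iFIPC and FI, so a value within a slide cannot be had. With slide as a fixed term the log2 changes were 5.91 ± 1.74 for Tpm2 and -4.00 ± 1.45 for Myl9, neither past the threshold (adjusted p = 0.184 and 0.261). That fit called 106 of all genes in place of 1489. Of 10 fibroblast markers tested, 5 were higher in iFIPC and none lower, where 10.3% of all genes were called in either direction. For crypt against FI only 6 were tested, so some of the 10 entered through iFIPC alone, with their direction fixed by the filter. The summed signal of the 16 fibroblast markers was 4.17 to 12.8 in iFIPC against 0.817 to 2.67 in FI. Among them Twist1 stood at -2.95, -2.72 and -2.23 in iFIPC and below background in FI, and Col1a1 at -1.16, 0.50 and -3.04 in iFIPC and -1.10, -7.29 and -5.91 in FI. The iFIPC array with the highest Tpm2 and the highest Acta2 3′ signal, iFIPC 3, had the lowest fibroblast sum, 4.17 against 5.26 and 12.8. Likewise FI 3, with the lowest Tpm2 of the FI arrays, had their highest fibroblast sum, 2.675 against 1.655 and 0.8165. Of 3 immune markers tested, Cd14 and Cd68 were higher in iFIPC, and the 6 on the list summed to 3.28 to 7.47 in iFIPC and 0.625 to 1.08 in FI. Of 3 hepatocyte markers tested, Trf and Ttr were higher in iFIPC, with sums of 4.54 to 12.8 in iFIPC and 2.4 to 6.91 in FI. Of 7 pericyte markers tested, Mcam and Abcc9 were lower and Rgs5 higher (1.88 ± 0.47) in iFIPC. Mcam read -1.74, -2.24 and -2.52 in iFIPC and 0.07, -0.08 and -0.33 in FI, and Abcc9 was above background in FI and not in iFIPC, while Pdgfrb overlapped (-3.87, -3.43 and -4.64 in iFIPC and -2.66, -4.70 and -5.26 in FI). Summed over 7 pericyte markers the signal was 0.854 to 1.65 in iFIPC and 1.53 to 1.91 in FI. The part of these marker lists in the results was not tested.

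Between the induced organoids 1 of 5 genes tested passed, against 7.41% of all genes. Tpm2 was lower in iISC than in iFIPC (-6.45 ± 0.87, adjusted p = 0.00234), with no overlap. Acta2 by its 3′ probe was lower too (-1.77 ± 0.38, adjusted p = 0.0213, where 6.08% of all probes were called), and by its brightest probe it was not (-0.13 ± 0.14). Of 11 fibroblast markers tested, 5 were lower in iISC and none higher. For iISC against crypt only 5 were tested, so some of the 11 entered through iFIPC alone, with their direction fixed by the filter. The 16 fibroblast markers summed to 0.834 to 1.01 in iISC and 4.17 to 12.8 in iFIPC. The 6 immune markers summed to 0.867 to 2.71 in iISC and 3.28 to 7.47 in iFIPC. The part of these markers was not tested. Within the slide shared by all iISC arrays and iFIPC 2, Tpm2 differed by -6.01 ± 1.19 (adjusted p = 0.197), in a fit with a single iFIPC array, which was assumed to vary like iISC, so that its p says little about the call. Without iFIPC 3, Myl9 also passed, as higher in iISC (2.15 ± 0.54, 0.0476).

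Crypt and FI organoids, both grown from intestine, differed in 2 of 7 genes tested, against 8.76% of all genes. Both were lower in crypt, Myl9 (-3.26 ± 0.74, adjusted p = 0.019) and Tpm2 (-4.42 ± 0.87, adjusted p = 0.0104), the second with 1 of 3 crypt arrays above background. Tpm2 passed the filter through FI alone, so that it could be called only as lower in crypt. Within the slide of crypt 1 and all FI arrays, the differences were -3.70 ± 0.67 for Myl9 and -3.71 ± 1.39 for Tpm2, and neither passed (adjusted p = 0.159 and 0.406). With a single crypt array there, assumed to vary like FI, these p-values say little about the calls. Without crypt 3 or without FI 2 the adjusted p of Myl9 was 0.0703 and 0.0683. The pericyte markers Kcnj8, Mcam and Abcc9 were lower in crypt as well, and the list summed to 0.257 to 0.349 in crypt and 1.53 to 1.91 in FI. Their part was not tested.

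Whether the step between fetal-type and adult-type organoids was the same in induced and in tissue-grown cultures was tested as a difference of differences. Myl9 alone passed among 7 genes tested, against 4.48% of all genes. Its value was 1.25 ± 0.74 for iISC over iFIPC and -3.26 ± 0.74 for crypt over FI, a difference of 4.50 ± 1.04, adjusted p = 0.0395. This call was lost without 9 of the 12 organoid arrays, each left out in turn. For Tpm2, lower in the adult-type organoids on both sides, the difference was -2.04 ± 1.23, adjusted p = 0.32.

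**Figure D4:**
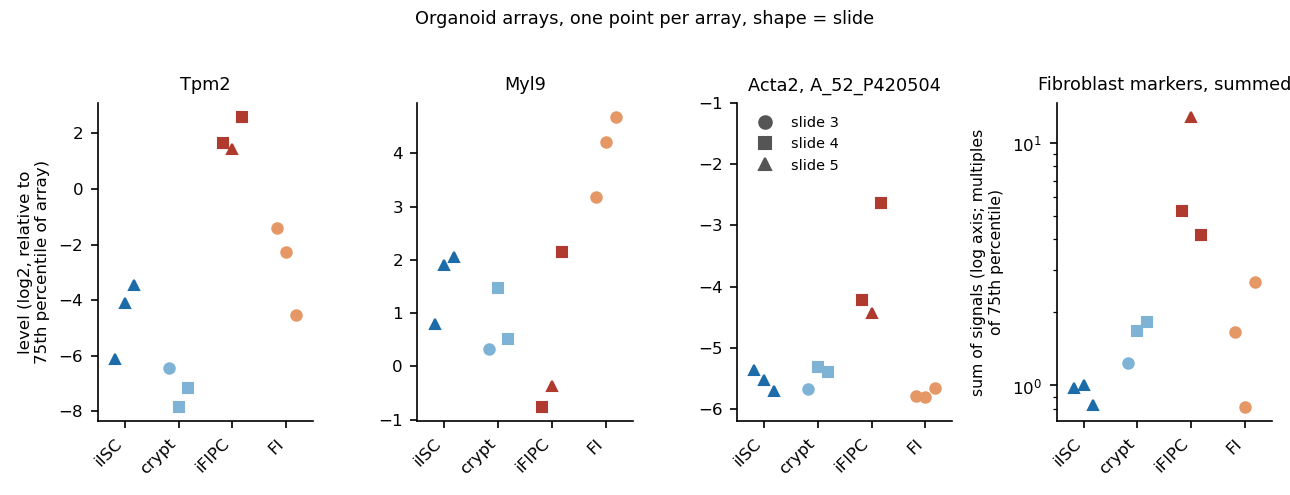
Levels of Tpm2, Myl9 and the 3′ probe of Acta2 in the 12 organoid arrays (log2 relative to the 75th percentile), and the summed signal of 16 fibroblast markers on a log axis. Each point is an array and its shape gives the slide. iFIPC lies highest in Tpm2 and the Acta2 probe, and FI in Myl9. No slide holds both iFIPC and FI, and none holds both iISC and crypt.

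Most other genes of the contractile apparatus were lower than in MEF too. Of 26 other contractile and filament genes, 25 were tested against MEF, and 23 were lower in iISC, 22 in crypt, 24 in iFIPC, 21 in FI and 20 in iHep, with at most 1 higher in each. Their median changes were -3.65, -3.22, -3.01, -3.29 and -1.88. In the same order, 25.4, 26.1, 23.2, 23.7 and 15.8% of all genes were called lower, and medians over all genes were -0.01, 0.02, -0.02, 0.03 and -0.11. On single arrays of the other groups 17 to 23 of the 26 were above background, against 25 or 26 in MEF. Some of the 25 thus passed the filter through MEF alone and had to be higher there. Cald1, the gene of caldesmon, which binds actin and tropomyosin, was at least 710-fold lower in iISC, at least 1011-fold lower in crypt and at least 1266-fold lower in FI than in MEF, and changed by -7.91 ± 0.31 in iFIPC and -2.43 ± 0.31 in iHep. Itga8, an integrin subunit of mesenchyme, was at least 303-fold lower in iISC and at least 540-fold lower in FI. Mylk, the kinase that phosphorylates the light chain, was a contrast: it read 2.07, 2.06 and 2.31 in iISC, 2.28, 2.65 and 2.70 in crypt, -0.48, 0.89 and 0.85 in iFIPC, 1.98, 1.14 and 1.25 in FI and 2.15, 2.08 and 2.12 in MEF, so that iISC overlapped MEF and crypt lay above it.

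In iFIPC against FI, 4 of 21 such genes were higher and 1 lower, where 10.3% of all genes were called. Fhl1, a LIM protein of muscle, was higher by 8.04 ± 0.76, with 1.76, 2.58 and 3.12 in iFIPC and -4.53, -5.68 and -6.45 in FI, and Itga8 and Cald1 were at least 4.6-fold higher and at least 5.26-fold higher. Ldb3, a Z-disc protein of muscle, was higher too (1.29 ± 0.41), and Hspb6, a small heat shock protein of muscle, was lower (-1.08 ± 0.32). Fhl1, Itga8 and Cald1 were also the genes of this list called lower in iISC than in iFIPC, beside Mylk, which was higher (1.73 ± 0.36). Between iISC and crypt, Flna (filamin A, which cross-links actin) was higher (1.38 ± 0.21) and Pgm5, a phosphoglucomutase relative of muscle adhesions, lower (-2.88 ± 0.34) among 17 tested.

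A list of 15 relatives of these genes held mostly non-muscle genes, beside Lmod2 and Lmod3. Of the 15 relatives 14 were tested against MEF, and 7 were lower in iISC, 9 in crypt, 7 in iFIPC, 7 in FI and 3 in iHep, and none was higher. Over all genes the shares called lower were 25.4% in iISC, 26.1% in crypt, 23.2% in iFIPC, 23.7% in FI and 15.8% in iHep. Myl6, the essential light chain, averaged 7.51 ± 0.06 in iISC and 7.98 ± 0.12 in MEF, and Tpm3 5.13 ± 0.11 and 5.17 ± 0.14 (SD; 3 iISC samples, and 3 MEF arrays counted as 2 samples). Tpm1, a tropomyosin shared by muscle and other cells, read 4.63, 4.57 and 4.49 in iFIPC and 4.51, 4.36 and 4.28 in FI, and the groups overlapped. Myh10, a non-muscle myosin heavy chain, was at least 1577-fold lower in crypt than in MEF. Vim, the intermediate filament protein vimentin of mesenchyme, was the 1 relative of 13 tested that was called between iFIPC and FI, with 1.54, 2.57 and 1.03 in iFIPC and -1.08, -0.66 and 0.69 in FI (2.06 ± 0.47), and between iISC and iFIPC, with -0.35, -0.41 and -0.75 in iISC (-2.21 ± 0.47). Vim is on the fibroblast marker list too, so these calls were counted there as well.

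The regulators did not move as one. Of 22 measured, 10 of 18 tested were lower in iISC than in MEF and 2 higher, and in iHep 3 of 20 were lower and 3 higher. Over all genes 25.4% were called lower in iISC and 15.8% in iHep, and the count in iHep is near that share. Srf, serum response factor, averaged 1.70 ± 0.30 in iISC, 1.56 ± 0.07 in crypt, 1.46 ± 0.09 in iFIPC, 1.73 ± 0.03 in FI, 2.34 ± 0.38 in iHep and 1.94 ± 0.51 in MEF, and passed no test against MEF. Myocd, myocardin, was above background on 1 array of 18, an iHep array. Mrtfa, the related coactivator that carries actin signals to Srf, was lower than in MEF in iISC (-1.22 ± 0.12) and crypt (-1.28 ± 0.12). Tgfb3, a growth factor that drives the myofibroblast state, changed by -10.41 ± 0.73 in iISC and -4.92 ± 0.73 in iHep, while Klf5, a zinc finger factor of gut epithelium and muscle, was higher by 5.01 ± 0.27 in crypt and 3.16 ± 0.27 in iHep. Foxf2, a factor of gut mesenchyme, was at least 24.9-fold higher in iFIPC than in FI, with -0.88, -2.05 and -4.01 in iFIPC and no FI array above background, so that it entered the test through iFIPC alone.

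Serum response factor binds the CArG box, in which CC and GG flank 6 bases of A or T. RefSeq promoters (GRCm38.p6, 250 bases before to 50 after the start) were at hand for 6 of the 9 genes: Acta2, Cnn1, Des, Lmod1, Myl9 and Tpm2. On either strand a box was found in 1.63% of 32851 promoters, and among the 6 in Myl9 alone. With 1 inner base allowed to be G or C, 9.98% of promoters held a box, and among the 6 Acta2 and Myl9 did, with 2 each, at -84 and -34 and at -161 and -99 (first base of the box; the start is +1). The upstream parts of both are shown with these boxes in capitals, since Acta2 is the actin of this program and Myl9 the member with a perfect box, at chr19:34255374-34255623 (minus strand) and chr2:156775214-156775463 (plus strand):
Acta2 upstream: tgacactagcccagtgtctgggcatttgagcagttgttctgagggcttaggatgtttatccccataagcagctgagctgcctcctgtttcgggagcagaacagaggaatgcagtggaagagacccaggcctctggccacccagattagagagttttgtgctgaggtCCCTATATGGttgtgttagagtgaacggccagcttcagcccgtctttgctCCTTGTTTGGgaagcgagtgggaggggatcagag
Myl9 upstream: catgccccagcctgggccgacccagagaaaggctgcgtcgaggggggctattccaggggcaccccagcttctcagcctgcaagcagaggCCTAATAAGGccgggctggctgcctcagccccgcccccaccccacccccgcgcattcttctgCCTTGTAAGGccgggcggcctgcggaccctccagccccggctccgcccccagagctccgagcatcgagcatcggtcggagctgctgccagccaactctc

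Genes whose level ran most like the mean of the 9 genes over 17 samples were Asap1 (Pearson r = 0.987), the elastic fibre gene Fbln5 (0.984), Nckap5l (0.983) and the cardiac actin Actc1 (0.98), followed by Vcl, Samd4, Bcat1 and Gask1b. Samples fall into MEF, iHep and organoid clusters, so these values describe that split. Over the 12 organoid samples the closest were Lancl3 (0.97), Ctsl (0.966), Igf2bp1 (0.96) and Ssbp2 (0.943), followed by Efemp1, Sema3e, Zfp185 and Ccn2. The organoid mean of the 9 genes includes Cnn1, Des, Myh11 and Lmod1, which lay at or near background there, so that these values rest in part on signal that gives no order.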

How the data were processed

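RNA of 18 samples was hybridised to 1-colour Agilent arrays. Per the file headers, the deposited processed signal is a background-subtracted intensity on the linear scale, extracted with Feature Extraction 9.5.1.1 (MEF, iHep) or 10.7.1.1 (organoids); per the submitters' processing notes it was 9.5.1.1 throughout. The deposited flags mark spots above background. The authors' series matrix holds quantile-normalised intensity values (correlation with a quantile normalisation computed here, at least 0.99999) and served as an alternative.

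Outlier spots were dropped and spots of a probe averaged. Levels are log2 of the deposited intensity minus the array's 75th percentile. Probe names came from the files and a RefSeq table: 25070 of 41109 by accession, 6391 by symbol, 2005 by synonym, 7643 unnamed. The brightest probe stood for a gene. MEF 2 and 3 (robust spread of log2 differences 0.0588, against 0.0837 from spot noise and 0.176 to 0.484 in the other 17 within-group pairs) were averaged. The standard deviation of their differences was 0.119, against 0.110 from spot noise and 0.238 to 0.683 in the other pairs. limma 3.58.1 (R 4.3.3, statmod 1.5.0) was fitted over 17 samples, or over the 12 organoid samples for comparisons among them, with no covariate. A gene entered a test if all arrays of 1 or more of the groups compared had it well above background, adjusted p-values are Benjamini-Hochberg over all genes tested, two-sided, and errors of log2 changes are standard errors. On data simulated for iFIPC against FI (19896 genes), 92% of log2 changes of 2 and 93% of log2 changes of 3 were recovered, and 7 unchanged genes were called. These changes were placed only in genes above background on all 12 organoid arrays, and no slide effect was simulated. Recovery was thus not measured for Cnn1, Des, Myh11, Lmod1 and Tpm2, which were not above background on all of these arrays.

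The members, gene lists, tests and alternatives were chosen with earlier results of these data known. Beside all 9 genes, up to 4 called genes of a list and the 8 most alike genes could be named; Srf, Myocd, Mrtfa, Mylk, Tpm1, Tpm3, Myl6, Actb, Actg1, Pcsk7, Alb, Col1a1, Twist1, Mcam, Abcc9, Kcnj8, Rgs5, Cd14, Cd68, Trf, Ttr, Hspb6 and Pdgfrb were added after their values were seen. One probe sequence is not reported here. Same-numbered organoid samples did not deviate together (18 pairs, r from -0.4 to 0.341), so numbers were not taken as pairs. Endothelial, neuronal, immune, skeletal muscle and Cajal cell marker lists were measured as well and are summarised in the closing section.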

Additional observations from a re-analysis of the deposited data

Results flagged for a closer look

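Myl9 differed between induced and tissue-grown cultures in its step from fetal-type to adult-type organoids: the log2 difference of differences was 4.50 (iISC over iFIPC, minus crypt over FI). It was singled out because that difference itself passed the test across all genes. The call was lost without 9 of the 12 organoid arrays, each left out in turn. With slide as a random block or as a fixed term it was lost too. iISC read 0.79 to 2.06 and iFIPC -0.76 to 2.14, with overlap, whereas crypt read 0.33 to 1.48 and FI 3.18 to 4.68, with none.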

How the results depend on the processing

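The count of genes called lower than in MEF stayed at 9 in all 18 alternatives each for iISC, crypt, iFIPC and FI, and lay between 6 and 9 over 20 alternatives for iHep, with 6 within a slide and with slide as a fixed term. Against iHep it lay between 5 and 7 for iISC and for iFIPC, and between iISC and crypt it was 0 throughout. For iFIPC against FI the 2 calls became 4 with no minimum change, 3 with the probe of widest spread and 0 with slide as a fixed term. For iISC against iFIPC the 1 call became 2 with the probe of widest spread (added after the data were seen), 0 with slide as a fixed term and 0 within a slide, and lay between 1 and 2 when single arrays were left out, with 2 without iFIPC 3. For crypt against FI the 2 calls became 0 with slide as a fixed term and within a slide, and 1 to 2 when single arrays were left out, with 1 without crypt 3 or FI 2, and 3 with no filter on dim probes. For the difference of differences the 1 call became 2 with normexp, 0 with no filter on dim probes, with slide as a random block and as a fixed term, and 0 to 1 when single arrays were left out. With the replicate number as a block, fitted on 18 separate arrays with MEF 2 and 3 not averaged, the counts were 9 for each comparison with MEF, 6 for iISC and for iFIPC against iHep, 0, 2, 1 and 2 among the organoids and 1 for the difference of differences. The only call that this fit changed was that of Tpm2 in iFIPC against iHep (adjusted p = 0.057). Where slide was a term, fewer residual degrees of freedom and fewer shared arrays were left, and over all genes 106 were called for iFIPC against FI in place of 1489. The cause of the other changes was not tested. No result changed sign past a threshold.

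Median centring moved the median of all genes by 0.15 to 0.55 in the comparisons between organoids and MEF or iHep, for iISC against iFIPC and for crypt against FI. It raised the share of higher genes among those called, to 51.7% for iISC against iFIPC in place of 40.4% and to 50.4% for crypt against FI in place of 34.1%. Against MEF the share became 64.6% for iISC in place of 47.7%, 64.4% for crypt in place of 48.1%, 60.2% for iFIPC in place of 46.6% and 62.3% for FI in place of 49.5%, and against iHep 68.8% for iISC in place of 51.6% and 64.4% for iFIPC in place of 51.5%. Signal near background limits Cnn1, Des, Myh11 and Lmod1 in organoids, whose levels there give no order.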

Other observations

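Markers of cells other than fibroblasts and pericytes were summed in the same way, as multiples of the 75th percentile. The 6 endothelial markers summed to 0.0343 to 0.0435 in iISC, 0.0356 to 0.0457 in crypt, 0.0336 to 0.0508 in iFIPC, 0.0263 to 0.0337 in FI, 0.0365 to 0.0386 in iHep and 1.16 to 2.19 in MEF. The 7 markers of enteric neurons and glia summed to 0.415 to 0.466 in iISC, 0.374 to 1.63 in crypt, 0.584 to 1.05 in iFIPC, 0.2 to 0.921 in FI, 0.144 to 0.433 in iHep and 0.582 to 0.84 in MEF. The 3 markers of interstitial cells of Cajal summed to 1.47 to 1.98 in iISC, 0.686 to 1.91 in crypt, 2.09 to 2.41 in iFIPC, 0.847 to 2.29 in FI, 1.66 to 3.44 in iHep and 0.687 to 0.726 in MEF. The 6 immune markers summed to 0.867 to 2.71 in iISC, 0.799 to 1.32 in crypt, 3.28 to 7.47 in iFIPC, 0.625 to 1.08 in FI, 6.3 to 15.2 in iHep and 3.18 to 4.41 in MEF. The 24 skeletal and cardiac muscle genes summed to 5.31 to 21.9 in iISC, 4.22 to 24.4 in crypt, 5.87 to 12.4 in iFIPC, 2.78 to 7.13 in FI, 8.65 to 19.4 in iHep and 67 to 119 in MEF, and among them Acta1, skeletal alpha-actin, was uneven within groups, at 0.83, 1.43 and 2.91 in iISC and 3.58, 0.67 and 0.38 in crypt.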
